A study of Drosophila melanogaster with 3 samples.

Results

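The 35 protein-coding genes of Drosophila melanogaster whose FlyBase symbol names an aminoacyl-tRNA synthetase were examined for chromatin occupancy by the product of CG15514. Membership followed the symbol alone, a three-letter amino acid name followed by RS or RS-m, with alpha- and beta-PheRS and GluProRS included. The gene family itself was chosen with earlier results of these data known. Its members are 35 of the 13945 protein-coding genes annotated on the 6 chromosome arms X, 2L, 2R, 3L, 3R and 4. Of the 35, 20 carry a plain symbol and are called cytoplasmic here, and 15 carry the suffix -m and are called mitochondrial. The 20 cytoplasmic genes cover all 20 amino acids, because GluProRS serves both glutamate and proline and phenylalanine needs an alpha and a beta subunit. The split follows the symbols only: a gene without the suffix can still supply both compartments.

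The series consisted of ChIP-seq, in which DNA recovered with a protein is sequenced, on whole embryos collected from 0 to 24 hours, male and female together. The flies were transgenic and stably expressed a CG15514-eGFP fusion, with eGFP (enhanced green fluorescent protein) as a C-terminal tag, and the tag was pulled down with an anti-GFP antibody. The 3 samples were biological replicates 1, 2 and 3 of that 1 genotype and there was no second condition, so every comparison below is between genes within the same chromatin. Chromatin was sonicated to fragments of 200 to 800 bp. A peak in such a mixture of tissues does not show which cells held it, and strong occupancy in few cells cannot be told apart from weak occupancy in many. The authors deposited a list of 30000 entries for each replicate, a list of 30000 entries for the pooled replicates and a thresholded list of 8708 reproducible peaks, all on genome build dm6. These lists give a signal value for each entry and no read counts, so the depth of each sample is unknown and signal is compared only within a list.

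Aminoacyl-tRNA synthetases join each amino acid to its transfer RNA, and so set which amino acid a codon is read as. Most eukaryotes use separate nuclear genes for the enzymes of the cytoplasm and of the mitochondrion, and the mitochondrial enzymes are imported after translation. The enzymes fall into class I and class II by the fold of their catalytic domain, and in human cells some of the cytoplasmic ones are bound together in a multisynthetase complex. All are housekeeping enzymes, needed in every cell that makes protein.

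Several of the promoters hold an exact copy of a core promoter element within 100 bp of the summit, the position of highest signal in a peak. The sequences of 5 of them are shown because they hold such an element, and those of ArgRS and beta-PheRS because these promoters hold the same elements but had no peak in the thresholded list. All are from the dm6 plus strand, read 5′ to 3′, with the elements named next in capitals. A CAGCTG in ArgRS, an element also sought below, is left in lower case. TATCGATA is the DNA replication-related element (DRE), the binding sequence of the factor Dref, and GGTCACAC, or its complement GTGTGACC, is the core of the Ohler 1 element, the binding sequence of M1BP. In IleRS the second run of capitals is CTAGTTC, which is GAACTAG on the other strand. In ProRS-m the element lies over a transcription start of the neighbours CG42304 and Snup, 238 bp from that of ProRS-m.
IleRS, chr3L:22288608-22288680: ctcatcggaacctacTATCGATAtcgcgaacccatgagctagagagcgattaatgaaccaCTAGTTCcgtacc
AlaRS, chr2L:8381754-8381805: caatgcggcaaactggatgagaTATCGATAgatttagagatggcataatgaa
TrpRS, chr3R:9266947-9266998: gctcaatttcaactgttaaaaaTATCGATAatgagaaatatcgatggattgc
GlnRS, chr3R:25265694-25265745: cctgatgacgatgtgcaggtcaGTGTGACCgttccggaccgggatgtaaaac
ProRS-m, chr3L:2652064-2652115: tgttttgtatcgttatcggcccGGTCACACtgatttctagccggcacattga
ArgRS, chrX:15844150-15844201: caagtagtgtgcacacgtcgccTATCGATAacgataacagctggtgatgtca
beta-PheRS, chr3R:24252703-24252754: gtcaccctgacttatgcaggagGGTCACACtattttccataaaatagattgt

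Most synthetase promoters were occupied. A summit of the thresholded list lay within 500 bp of an annotated transcription start site (TSS) of 25 of the 35 synthetase genes, or 71.4% (95% Clopper-Pearson interval 53.7% to 85.4%), against 5985 of all 13945 protein-coding genes, or 42.9%. Cytoplasmic genes had a summit in 15 of 20 cases (75%, interval 50.9% to 91.3%) and mitochondrial genes in 10 of 15 (66.7%, interval 38.4% to 88.2%). The difference of 8.33 percentage points between cytoplasmic and mitochondrial genes had a 95% Newcombe interval of -20.1 to 36.9 points, so these numbers of genes do not separate the classes. Intervals cover counting error over genes only. A single TSS position was annotated for 26 of the 35 synthetases (74.3%) and for 73.5% of all protein-coding genes. Of these single-TSS genes, 18 of the 26 synthetases had a summit (69.2%), against 36.4% of all such genes.

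**Figure D1:**
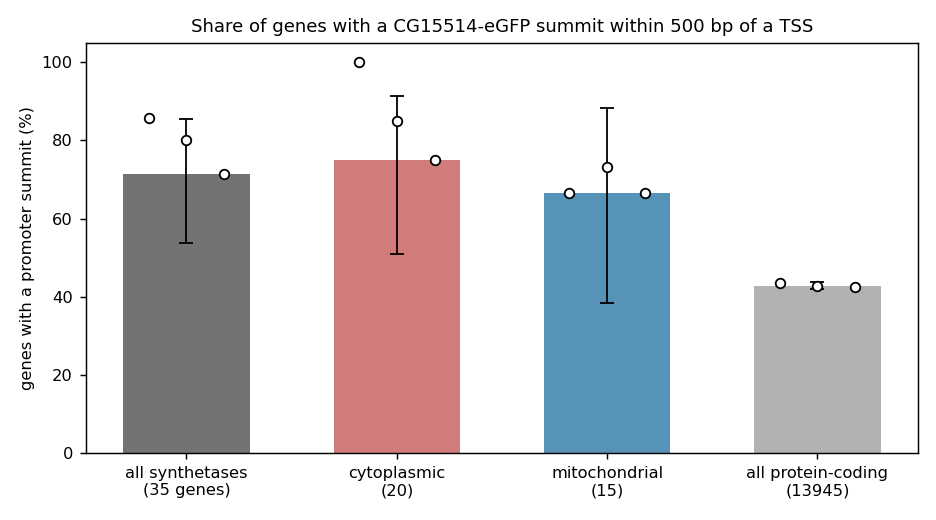
Share of genes with a summit within 500 bp of a TSS, in percent, for all synthetases, cytoplasmic synthetases, mitochondrial synthetases and all protein-coding genes. Bars are the thresholded list with 95% Clopper-Pearson intervals over genes, and open circles are the 8708 strongest entries of replicates 1, 2 and 3 from left to right. The synthetase bars stand at 71.4%, 75% and 66.7%, above the 42.9% of all genes.

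The occupied synthetase promoters had signals like those of other occupied genes. Their median signal was 296.4, against 314.6 for the 5985 occupied genes of all kinds (quartiles 208.5 and 529.1). Of the 25, 12 lay above that all-gene median, 9 of the 15 cytoplasmic and 3 of the 10 mitochondrial. Cytoplasmic promoters had a median of 381.5 (quartiles 225.7 and 519.2, range 193.8 to 24545) and mitochondrial promoters one of 236.5 (quartiles 165.2 and 364.1, range 140.7 to 1351). The ratio of these medians, cytoplasmic over mitochondrial, was 1.61, and the ranges overlapped. The weakest thresholded peak of all had a signal of 118.9. The −log10 q values of the list are capped at 4.127. AspRS-m still carried that value at rank 6542, so it does not mark a strong peak.

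Among cytoplasmic enzymes the isoleucine enzyme stood far above the others. The summit of IleRS (FBgn0027086, gene at 3L 22288665 to 22292810) lay at 22288644, which is 21 bp upstream of its TSS in intergenic sequence, with a signal of 24545 and rank 80 of 8708. Its promoter ranked 78, 80 and 78 in replicates 1, 2 and 3, with signals of 6661, 5483 and 12473 on the scales of those lists. The peak was 1219 bp wide, whereas most synthetase peaks had the width of 424 bp. The summit also lay 449 bp from a TSS of Hem, a subunit of the SCAR/WAVE actin-regulating complex, which is transcribed the other way. IleRS was above 97.9% of occupied genes in signal.

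The second was alpha-PheRS (FBgn0030007, gene at X 8143904 to 8145602), the alpha subunit of phenylalanyl-tRNA synthetase, with a signal of 1638 and rank 356. Its ranks of 335, 369 and 371 in the 3 replicates varied little, and its summit lay 93 bp upstream of its TSS and 144 bp from one of CG2129. SerRS, the seryl enzyme (gene at 2L 3035493 to 3037403), followed with a signal of 637.5 and rank 1013 (1116, 865 and 1086 in the replicates). Its summit lay 22 bp downstream of the TSS, in the 5′ UTR, with TSSs of CG17260 on both sides of the gene start.

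The next 6 cytoplasmic genes had signals between 360.9 and 525.6. AlaRS, the alanyl enzyme (gene at 2L 8378262 to 8381764), reached 525.6 at rank 1370 with its summit 15 bp upstream of the TSS and a further summit of rank 4204 at 222 bp upstream. GlnRS, the glutaminyl enzyme, reached 512.9 at rank 1422 and shared its summit with RIOK2, a kinase of small ribosomal subunit maturation. GluProRS, a single protein that charges both glutamate and proline tRNAs, reached 457.6 at rank 1683 and shared its summit with AP-1sigma, a clathrin adaptor subunit. ThrRS, the threonyl enzyme, reached 417.7 at rank 1944, with its summit 158 bp upstream of its TSS and 308 bp from that of Patsas. LysRS, the lysyl enzyme, reached 381.5 at rank 2246, midway between its TSS 29 bp away and one of the ubiquitin ligase gene Hecw 33 bp away. AsnRS, the asparaginyl enzyme, reached 360.9 at rank 2424, opposite the dynactin subunit gene DCTN6-p27, and had a further summit of rank 6157. In the 3 replicate lists these 6 genes ranked between 988 and 3317, so their order among themselves was not fixed. AlaRS and GlnRS, for example, ranked 1120 and 988 in replicate 1, 1047 and 1330 in replicate 2, and 1831 and 1855 in replicate 3.

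The remaining 6 occupied cytoplasmic genes had signals below the all-gene median of 314.6. TrpRS, the tryptophanyl enzyme, had a signal of 294.2 at rank 3267 and shared its summit with the vesicle trafficking gene Vps16A. MetRS, the methionyl enzyme, had 243.7 at rank 4222, with replicate ranks of 2594, 6492 and 4708, and shared its summit with CG15084. HisRS, GlyRS and CysRS, the histidyl, glycyl and cysteinyl enzymes, had signals of 207.4, 201.5 and 193.8 at ranks 5043, 5204 and 5437. The HisRS summit lay 65 bp upstream of a TSS position that the annotation also gives to Bx, on the same strand, and within 500 bp of a TSS of CG6470. The GlyRS summit lay within 500 bp of TSSs of Plp, a centrosome protein gene, and of sstn. CysRS shared its summit with no other protein-coding gene.

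ValRS, the valyl enzyme, was the member at the edge of the promoter definition. Its summit, with a signal of 207.7 and rank 5034, lay 496 bp upstream of its TSS, just inside the 500 bp limit, and 17 bp from a TSS of the histone demethylase gene Kdm4B. Its promoter ranked 3842, 4514 and 20696 in replicates 1, 2 and 3, the widest spread of the 25. In replicate 3 the entry nearest to the thresholded summit ranked 6694 but lay just beyond 500 bp. With a promoter of 250 bp ValRS was the only synthetase that was no longer counted.

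Among mitochondrial enzymes the arginyl one came first. ArgRS-m (FBgn0037526, gene at 3R 7887045 to 7890150) had a signal of 1351 at rank 423, with its summit at 7886924, which is 121 bp upstream of its TSS and 191 bp from one of CG17816. It ranked 421, 416 and 429 in replicates 1, 2 and 3, a mean of 422 ± 6.56 (SD, n = 3), and a further summit of rank 4929 lay 82 bp downstream of the TSS. IleRS-m, the isoleucyl enzyme (gene at 3L 16100280 to 16103482), came next with 607.1 at rank 1084 (1371, 1238 and 969 in the replicates), 32 bp upstream of its TSS and with no other protein-coding TSS within 500 bp. LeuRS-m, the leucyl enzyme, had 386.6 at rank 2204, at a summit exactly midway between its own TSS and one of Dhc64C, the heavy chain of cytoplasmic dynein, 83 bp from each.

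The other 7 occupied mitochondrial genes had signals below the all-gene median. AlaRS-m, the alanyl enzyme, had 296.4 at rank 3227, 11 bp downstream of its TSS in the 5′ UTR, opposite Fitm, a lipid droplet gene. TyrRS-m, the tyrosyl enzyme, had 254.4 at rank 3975, 51 bp upstream of its TSS but only 4 bp from a TSS of CG3589. AsnRS-m, the asparaginyl enzyme, had 218.6 at rank 4774, 10 bp downstream of its TSS and opposite the protease gene ste24a. TrpRS-m and AspRS-m, the tryptophanyl and aspartyl enzymes, had 180.8 and 160.1 and shared their summits with no other protein-coding gene. The AspRS-m summit lay in a coding exon, 191 bp downstream of an internal TSS. CysRS-m, the cysteinyl enzyme, had 148.2 at rank 7038, nearer to the protein O-fucosyltransferase gene O-fut1 (35 bp) than to its own TSS (133 bp). ProRS-m, the prolyl enzyme, had 140.7 at rank 7405, the lowest of the 25, at 25 bp from a TSS of CG42304 or Snup (the import receptor snurportin) and 213 bp from its own.

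**Figure D2:**
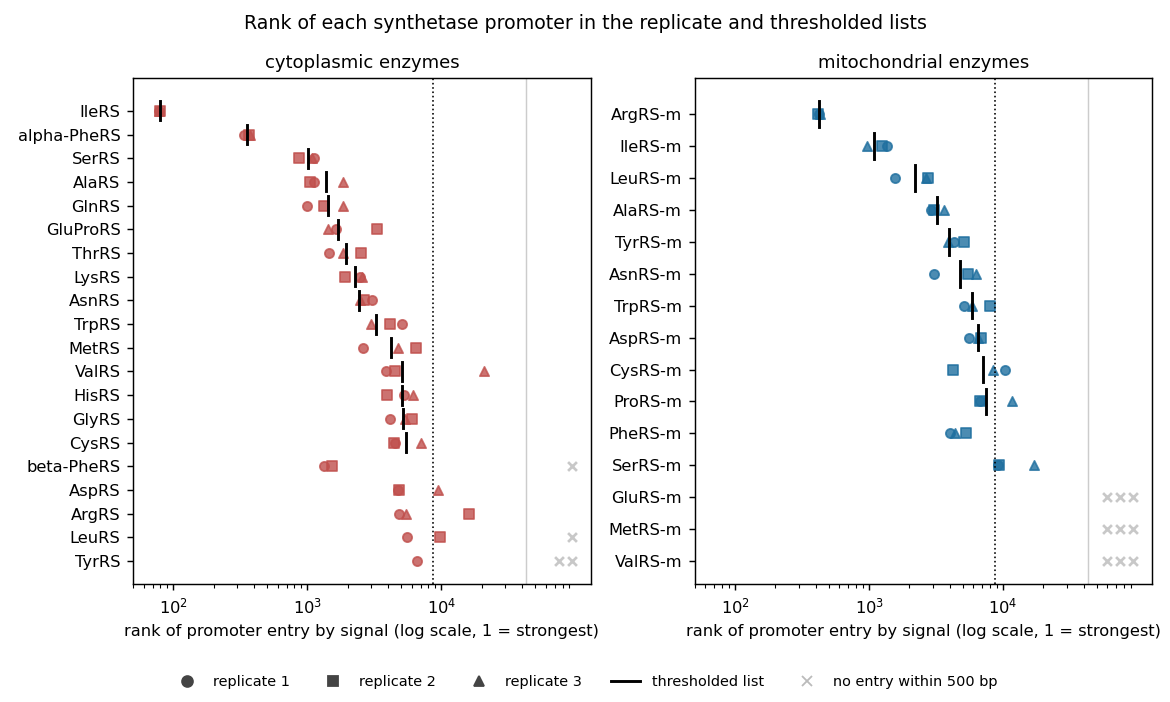
Rank by signal of the strongest entry within 500 bp of a TSS of each synthetase gene, on a log scale on which 1 is the strongest, with cytoplasmic enzymes on the left and mitochondrial enzymes on the right. Circles, squares and triangles are replicates 1, 2 and 3, black bars the thresholded list, grey crosses right of the grey line mark no entry, and the dotted line is rank 8708. IleRS, alpha-PheRS and ArgRS-m have nearly the same rank in all lists, while beta-PheRS and PheRS-m have replicate entries and no bar.

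Rank was most stable for the 3 strongest promoters. The SD of the rank over the 3 replicates was 1.47% of the mean for IleRS, 1.55% for ArgRS-m and 5.65% for alpha-PheRS, and for the other 22 occupied promoters it ranged from 10.8% for AspRS-m to 98.5% for ValRS. Among those 22 a stronger promoter did not always vary less. AlaRS at rank 1370 had 32.5%, and AlaRS-m at rank 3227 had 11.7%. Below the first few, some neighbours in the order changed places between replicates, as AlaRS and GlnRS did. The median rank of the 25 occupied synthetases was 2918, 3317 and 2978 in replicates 1, 2 and 3.

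The class comparison was repeated in each replicate list, taken to its 8708 strongest entries. Replicates 1, 2 and 3 had a summit within 500 bp for 20, 17 and 15 of the 20 cytoplasmic genes and for 10, 11 and 10 of the 15 mitochondrial genes. The cytoplasmic share was 86.7% ± 12.6 and the mitochondrial share 68.9% ± 3.85 (SD, n = 3 each), against 43.6%, 42.7% and 42.5% of all protein-coding genes in the 3 lists. The cytoplasmic share exceeded the mitochondrial one by 33.3, 11.7 and 8.33 points in replicates 1, 2 and 3, so the direction was the same in all 3 lists but the size was not. The ratio of median signals, cytoplasmic over mitochondrial, was 1.17, 1.64 and 1.43, a mean of 1.41 ± 0.237 (SD, n = 3). Across the genes, 23 of the 35 synthetases (65.7%) were among the strongest entries of all 3 replicates, against 36.6% of all protein-coding genes. A further 6 (17.1%) were among those of 2 replicates, 2 (5.71%) of 1 and 4 (11.4%) of none. The shares of all protein-coding genes were 6.53%, 5.99% and 50.9%. The 4 synthetases with none were all mitochondrial: GluRS-m, MetRS-m, SerRS-m and ValRS-m.

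Summit positions were close to those of other occupied genes. The distance to the nearest TSS of the gene had a median of 76 bp for the 25 synthetases and 83 bp for all 5985 occupied genes. The summit was within 100 bp of the TSS in 16 of 25 (64%), against 56.6% of all occupied genes, and upstream of it in 21 of 25 (84%), against 86.2%. It was upstream in 14 of 15 cytoplasmic genes and in 7 of 10 mitochondrial genes. The exceptions were SerRS among the cytoplasmic genes and AlaRS-m, AsnRS-m and AspRS-m among the mitochondrial ones.

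**Figure D3:**
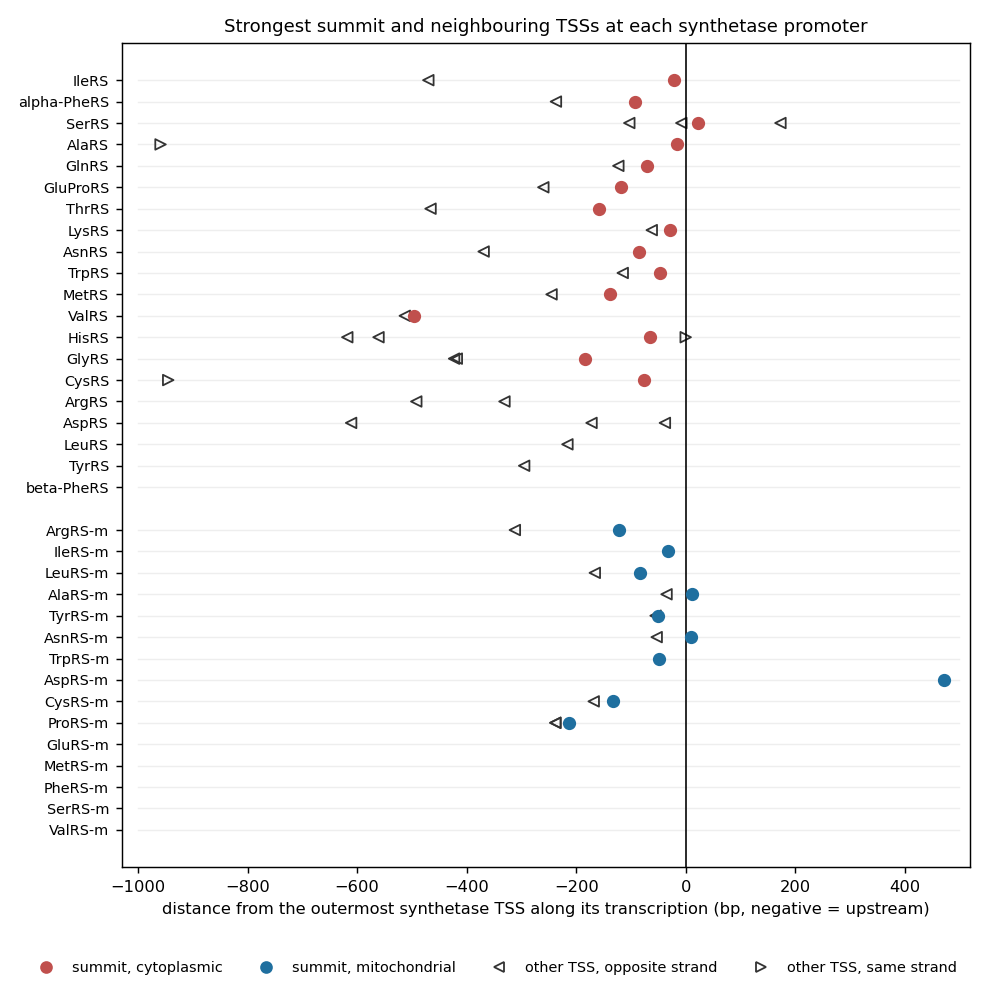
Position of the strongest thresholded summit (filled circles) and of every other protein-coding TSS within 1000 bp (open triangles) at each synthetase gene, in bp from its outermost TSS along the direction of transcription. Genes are ordered by signal within each class, cytoplasmic above mitochondrial, and genes with no circle have no summit. Most circles lie between the black line at 0 and an open triangle of the opposite strand upstream, and 8 of the 15 mitochondrial genes have no triangle at all.

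Many synthetase genes stand next to another gene. Another protein-coding TSS lay within 1000 bp of a TSS of 26 of the 35 (74.3%), against 5985 of all 13945 genes (42.9%, by coincidence the same count as that of genes with a summit). In 24 of the 26 it was on the opposite strand. The classes differed in this respect: 19 of 20 cytoplasmic genes had such a neighbour, against 7 of 15 mitochondrial genes. Of the 25 synthetase summits, 20 (80%) lay within 500 bp of a TSS of at least 1 other protein-coding gene, against 52.2% of the summits of all occupied genes, and such a peak cannot be given to 1 gene alone. The synthetase TSS was the nearer one at 12 of those 20 summits, the partner's at 6, and at LeuRS-m and HisRS they were at the same distance.

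Synthetases with a neighbouring TSS were occupied more often. Of the 26 synthetases with a neighbouring TSS, 22 had a summit (84.6%, interval 65.1% to 95.6%), against 3 of the 9 without one (33.3%, interval 7.49% to 70.1%), and the intervals overlapped slightly. Over all protein-coding genes the shares were 62.5% with a neighbour and 28.2% without. Within genes that had a neighbour, 15 of 19 cytoplasmic genes (78.9%) and 7 of 7 mitochondrial genes had a summit, so the order of the classes was the opposite of that over all members. Without a neighbour, 0 of 1 cytoplasmic and 3 of 8 mitochondrial genes (37.5%) had one. The single cytoplasmic gene is beta-PheRS and the 3 mitochondrial genes are IleRS-m, TrpRS-m and AspRS-m. beta-PheRS ranked 1321 and 1516 in replicates 1 and 2. PheRS-m, also without a neighbour, ranked 4010, 5316 and 4380 in the 3 replicates. Both count here as genes without a summit because neither was in the thresholded list. With so few genes per cell these shares are descriptions, and the part of the neighbours in the occupancy of the synthetases was not tested.

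**Figure D4:**
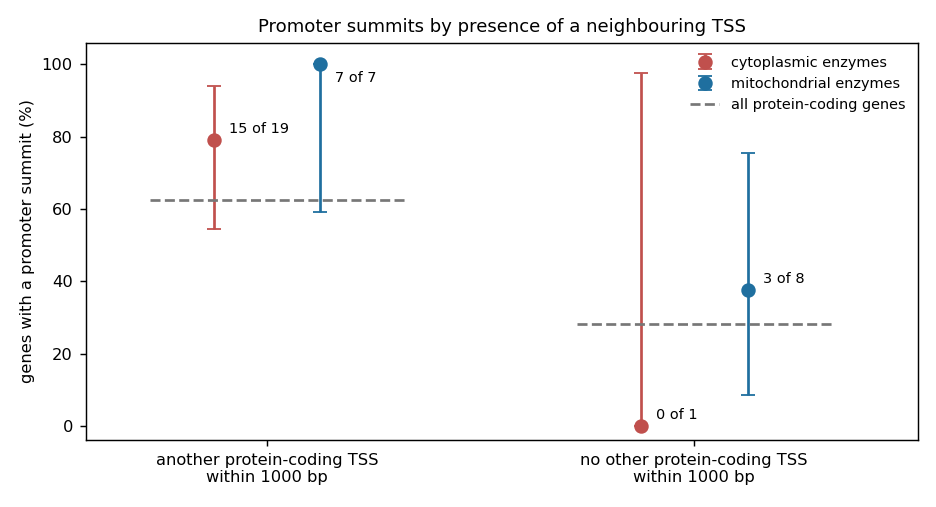
Share of genes with a thresholded summit, in percent with 95% Clopper-Pearson intervals, for cytoplasmic and mitochondrial synthetases with and without another protein-coding TSS within 1000 bp. Dashed lines are all protein-coding genes, at 62.5% with and 28.2% without such a neighbour. Points with a neighbour stand at 15 of 19 and 7 of 7, those without at 0 of 1 and 3 of 8.

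At least 1 gene was occupied for every amino acid. Of the 20 amino acids, 15 have both a cytoplasmic and a mitochondrial gene, and glutamine, glycine, histidine, lysine and threonine have the cytoplasmic gene alone. In 6 of the 15 (alanine, asparagine, cysteine, isoleucine, proline and tryptophan) both genes had a summit, in 5 (glutamate, methionine, phenylalanine, serine and valine) only a cytoplasmic gene did, and in 4 (arginine, aspartate, leucine and tyrosine) only the mitochondrial gene did. For none of the 15 were both genes without a summit. Where both had one, the cytoplasmic gene had the higher signal in 6 of 6 pairs, from ranks 80 and 1084 for IleRS and IleRS-m to ranks 5437 and 7038 for CysRS and CysRS-m. In the replicate lists it was the higher of these 6 pairs in 5, 5 and 6 cases for replicates 1, 2 and 3. Over every amino acid with an entry for both genes it was the higher in 8 of 12, 8 of 11 and 8 of 10 cases. Among the 6 pairs the exceptions were AsnRS and AsnRS-m in replicate 1, at ranks 3048 and 3042, and CysRS and CysRS-m in replicate 2, at ranks 4396 and 4204. GluProRS is counted for both of its amino acids.

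**Figure D5:**
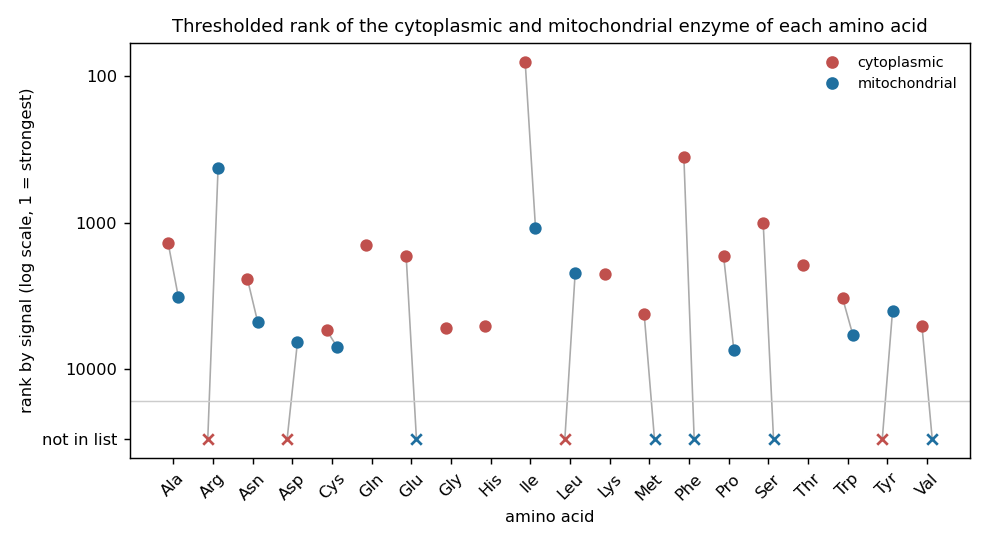
Rank in the thresholded list of the cytoplasmic (red) and the mitochondrial (blue) gene of each amino acid, on a log scale with the strongest at the top; crosses below the grey line are genes with no summit. For phenylalanine the cytoplasmic point is alpha-PheRS. In the 6 amino acids with both points in the list the red one is higher, and 4 amino acids have a blue point alone.

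The enzyme classes and the complex gave no clear order. A summit was present in 12 of 18 class I genes (66.7%) and 12 of 16 class II genes (75%), against 42.9% of all protein-coding genes. GluProRS, which holds a domain of each class, was left out. Of the 8 cytoplasmic genes whose human counterparts belong to the multisynthetase complex, 5 had a summit (IleRS, GlnRS, GluProRS, LysRS and MetRS) and 3 did not (LeuRS, ArgRS and AspRS). Of the other 12 cytoplasmic genes 10 had one. The shares were 62.5% of the 8 (interval 24.5% to 91.5%) and 83.3% of the 12 (interval 51.6% to 97.9%), and the intervals overlapped.

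The 10 synthetases without a thresholded summit were of several kinds. One was beta-PheRS (FBgn0039175, TSS at 3R 24252679), the beta subunit of the phenylalanyl enzyme. It ranked 1321 and 1516 in replicates 1 and 2, at 32 and 42 bp from its TSS. Both entries carried the highest −log10 q value of those lists, which is capped. The nearest entry was 7052 bp away in replicate 3 and 7040 bp away in the pooled list. Its partner subunit alpha-PheRS was rank 356. PheRS-m, the mitochondrial phenylalanyl enzyme (TSS at 2R 13968308), ranked 4010, 5316 and 4380 in the 3 replicates, 34, 68 and 87 bp from its TSS, and the nearest pooled entry was 1900 bp away. ArgRS, the cytoplasmic arginyl enzyme (TSS at X 15844145), ranked 4808, 16156 and 5460, with the nearest pooled entry 8598 bp away. AspRS, the aspartyl enzyme, ranked 4748, 4826 and 9478, and its pooled entry at rank 9085 was below the 8708 that were kept.

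The rest had little or nothing. LeuRS, the leucyl enzyme, ranked 5574 and 9812 in replicates 1 and 2 and had no entry in replicate 3, and TyrRS, the tyrosyl enzyme, ranked 6549 in replicate 1 alone. SerRS-m, the seryl enzyme of mitochondria, ranked 9206, 9283 and 16866, and 14526 in the pooled list. GluRS-m, MetRS-m and ValRS-m, the glutamyl, methionyl and valyl enzymes of mitochondria, had no entry within 500 bp in any list. The nearest one to GluRS-m in any replicate was 2388 bp away, that to ValRS-m 2008 bp and that to MetRS-m 18012 bp.

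Read by replicates, the call of 4 of these 10 genes was different. ArgRS, AspRS, beta-PheRS and PheRS-m were among the 8708 strongest entries of at least 2 replicates without a thresholded summit, or 40% of the synthetases that lacked one. The same held for 252 of the 7960 protein-coding genes without a thresholded summit (3.17%). PheRS-m was strong in all 3 replicates, as were 44 such genes in the whole annotation. Counted by a strong entry in at least 2 replicates, a rule added after the values were seen, 29 of 35 synthetases (82.9%) had an occupied promoter, 18 of 20 cytoplasmic and 11 of 15 mitochondrial, against 43.1% of all protein-coding genes.

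Each of the 5 sequence elements was present at some of the summits and no element was present at most of them except the short TATAAA. Exact matches were sought on both strands within 100 bp of the 25 synthetase summits and of all 5510 thresholded promoter summits. The DRE, TATCGATA, was at 3 of the 25 (12%), AlaRS, IleRS and TrpRS, against 11.4% of all promoter summits. At AlaRS the match overlapped the summit itself, at IleRS it ran from 22288623 to 22288630, upstream of the TSS and 14 bp from the summit, and at TrpRS it lay 18 bp from it. All 3 are cytoplasmic genes, and 0 of the 10 mitochondrial summits had a DRE, which with 10 summits allows a share of up to 30.8% (95% Clopper-Pearson interval). Ohler 1, GGTCACAC, was at 4 (16%), AsnRS-m, GlnRS, ProRS-m and ValRS, against 9.60%. The matches of AsnRS-m, ProRS-m and ValRS lay over opposite-strand TSSs of their neighbours ste24a, CG42304 with Snup, and Kdm4B. These TSSs were 53, 238 and 513 bp from the synthetase TSS, so the matches cannot be given to the synthetases alone. GAACCAG or GAACTAG, a sequence found near the strongest peaks of this protein, was at 1 of the 25 (4%), IleRS, against 6.55%. IleRS is itself among the strongest peaks that this sequence was chosen from, so its match there is no separate finding. Within 200 bp AspRS-m had it too.

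The shortest elements were the most frequent. CAGCTG, the E-box of Ohler 5, was at 8 of the 25 summits (32%), against 16.2% of all promoter summits, at 3 of 15 cytoplasmic and 5 of 10 mitochondrial ones. TATAAA, the TATA box, was at 13 of the 25 (52%), against 28.7%. None of the 5 elements contains another. In the promoters themselves, from 250 bp before to 50 bp after the outermost TSS, CAGCTG was in 17 of the 35 (48.6%), against 17.7% of all protein-coding promoters. It was in 13 of the 25 promoters with a summit and in 4 of the 10 without. TATAAA was in 19 of the 35 (54.3%), against 45.9%. The DRE was in 5 (14.3%), against 9.37%, and Ohler 1 in 5 (14.3%), against 7.71%. These include promoters without a thresholded summit: the DRE of ArgRS began 34 bp before its TSS and that of PheRS-m at the TSS, and the Ohler 1 match of beta-PheRS began 53 bp before its TSS. Such matches describe the letters in these windows and do not show that a factor bound there.

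Genes that work with the synthetases were also mostly occupied. In 6 related lists, 29 of 33 genes had a promoter summit (87.9%), against 42.9% of all protein-coding genes, with a median signal of 278.5 over the 29, close to the 296.4 of the synthetases. Of the scaffold proteins of the multisynthetase complex, AIMP1 and AIMP3 had signals of 309.0 and 293.5 and AIMP2 had no summit. Of the genes of mitochondrial transfer RNA amidation and formylation, which make glutaminyl-tRNA and formylmethionyl-tRNA from mischarged or unformylated precursors, GatA had 488.6, GatC 478.8 and CG1750 154.1, and GatB had none. Slimp, a mitochondrial paralog of the seryl enzyme, had 674.8 at rank 929, and Dtd, which removes D-amino acids from transfer RNA, had 120.4.

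All 6 genes of transfer RNA maturation had a summit. Among them rswl and mldr, subunits of mitochondrial RNase P, had signals of 365.1 and 267.8, RNaseZ, which trims the 3′ end, had 232.8, and Rpp30, a subunit of nuclear RNase P, had 188.6. Of 10 modification enzymes 8 had one. Trm7-32, a methyltransferase of the anticodon loop, had a signal of 28298 at rank 58, above IleRS, and ranked 53, 57 and 63 in the replicates, at a summit shared with CG18213. It was followed by wuho with 616.0 and the queuine transferase gene Tgt with 439.3, while Nsun2 and Trm7-34 had none. All 8 genes of the response to amino acid shortage and translation stress had a summit. The strongest were eIF2gamma, a subunit of the initiation factor that delivers the initiator transfer RNA, with 448.5, PPP1R15, a phosphatase subunit that acts on eIF2, with 322.1, the kinase PEK with 297.0 and Thor, the translation repressor 4E-BP, with 286.0. Many summits of these related genes, as those of GatA, GatC, mldr, wuho and eIF2gamma, also lay within 500 bp of another protein-coding TSS. Those of AIMP3, Slimp, PEK and Thor, among others, did not. A shared peak cannot be given to a single gene. No difference between the lists was tested.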

How the data were processed

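Per the labels, chromatin of 3 biological replicates, which form 1 group, was precipitated with an antibody against GFP. The authors deposited narrowPeak lists on dm6 and dm3, of which the dm6 lists were used. Per the file headers and descriptions, each replicate list and the pooled list were made against a control alignment, and the thresholded list from these by IDR. The deposited height is a signal value without a scale between lists; the authors' −log10 q values are capped, so entries were ranked by signal. Summit offsets are a column of other values in the deposited lists. Aligner, caller, their versions and the threshold of IDR: not given in the sources used here. The depth is unknown.

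Genes and TSSs came from Ensembl 115 (FlyBase release 6.54) and sequence from the Release 6 assembly, which dm6 names. Coordinates count from 1. A gene was occupied where a summit lay within 500 bp of a TSS, and its strongest such summit was used. Replicates were taken to their 8708 strongest entries. Shares have 95% Clopper-Pearson intervals, and no p-values were computed. Members, lists and motifs were chosen with earlier results of these data known. Named were every member, every gene sharing its summit, and up to 4 genes per related list by signal, of which 1 is not reported here; the 4 related genes lacking a summit were named after their values were seen; 2 of 35 related names matched no gene and 1 matched by synonym. The call of a summit within 500 bp of a TSS was tested on planted summits (Python 3.11.15, pandas 2.3.3, SciPy 1.17.1). Alternatives covered promoter size, overlap, TSS choice, peak strength, replicates, neighbours and motif window.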

Additional observations from a re-analysis of the deposited data

How the results depend on the processing

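The synthetase share was 71.4% (42.9% of all genes), the difference between cytoplasmic and mitochondrial genes 8.33 points and the ratio of their medians 1.61. These values were the same with a promoter of 1000 bp, interval overlap or the outermost TSS, where 46.8%, 44.9% and 40.9% of all genes had a summit. With a promoter of 250 bp they were 68.6% (38.0% of all genes), 3.33 points and 1.69. With pooled entries of any rank they were 77.1%, 6.67 points and 1.70, and the share of all genes was higher too, at 59.3%. With only the stronger 50% of peaks they were 45.7% (29.2% of all genes), 21.7 points and 1.18. Among genes without a neighbouring TSS the share was 33.3%, near the 28.2% of all such genes. There the difference was -37.5 points, with 1 cytoplasmic gene left and no ratio. Each replicate was also left out in turn, with support required from the other 2. This gave 65.7% to 68.6% (35.8% to 37.4% of all genes), 15 to 21.7 points and ratios of 1.39 to 1.50. The mean of the median ranks in the remaining replicates was 2948 to 3147.5 (3071 with all 3). Within 50 bp of the summit, Ohler 1 was at 2 of the 25 synthetase summits (8%), against 5.70% of all promoter summits. CAGCTG was at 4 (16%, against 8.51%) and TATAAA at 8 (32%, against 14.0%). Within 200 bp GAACCAG or GAACTAG was at 2 (8%, against 9.24%) and CAGCTG at 14 (56%, against 26.9%). No paired analysis was possible because there is 1 group. With 20 and 15 genes the classes cannot be compared finely, the depth is unknown, and a peak between 2 genes cannot be given to either.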

Other observations

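Entries strong in a replicate and without a pooled entry nearby, as at beta-PheRS, PheRS-m and ArgRS, also occurred at other sites. Of the 8708 strongest entries of replicates 1, 2 and 3, 273 (3.14%), 178 (2.04%) and 83 (0.953%) had no pooled entry within 500 bp, and 12, 5 and 3 of these were among the first 2000. Sites found in all 3 replicate lists within 100 bp and lacking a pooled entry numbered 25. The cause was not tested.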
